A study of Catharanthus roseus with 3 samples.

Results

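ORCA2 (Cr_TC02334), ORCA3 (Cr_TC05195) and MYC2 (Cr_TC31408) are transcriptional activators of terpenoid indole alkaloid (TIA) synthesis in Catharanthus roseus, the Madagascar periwinkle. They were taken by transcript identifier, 3 of the 59220 assembled transcripts, and are described in leaf, root and flower beside TDC (Cr_TC33880) and STR1 (Cr_TC04185), a pair of target enzymes. All tissues came from mature field plants of the variety Prabal, with no treatment named in the labels, and each tissue was sequenced as 1 library, so 3 libraries were compared. How many plants went into a library is not given in the sources used here. The values are RPKM (reads per kilobase of transcript, scaled by the mapped reads of the library). A tissue thus has no sequencing replicate to show its spread, and no test was run or p-value given. The paper also ran RT-PCR on at least 3 biological replicates per tissue, and those values were not used here. Its primer list holds TDC but not the activators or STR1.

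ORCA2 and ORCA3 belong to the AP2/ERF family, whose DNA-binding AP2 domain recognises GCC-like boxes, and both bind the jasmonate-responsive element in the promoter of the strictosidine synthase gene. MYC2 is a basic helix-loop-helix (bHLH) factor that acts upstream, by binding the ORCA3 promoter in response to jasmonate, the hormone that induces alkaloid synthesis in this plant. TDC (tryptophan decarboxylase) makes tryptamine, and STR1 (strictosidine synthase) couples tryptamine to secologanin to give strictosidine, from which the other TIAs are derived.

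The RPKM values summed to between 452743 and 471970 per library. The root label was checked against the aerial organs with enzymes known for an organ. T16H, D4H and DAT, enzymes of the vindoline branch of aerial organs, had 7.01, 63.2 and 6.85 RPKM in leaf, 0.04, 2.39 and 0.37 RPKM in root and 17.3, 3.45 and 6.29 RPKM in flower, so all were lowest in root. T19H, a tabersonine hydroxylase of roots, had 0.01 RPKM in leaf, 8.96 RPKM in root and was listed at 0 in flower. Leaf and flower labels were not checked against each other. The paper reports T16H, DAT and T19H as differing between root and leaf in these libraries, so the check is not independent of it. Actin (Cr_TC35401), the RT-PCR control of the study, had 1.17 RPKM in leaf, 70.7 RPKM in root and 55.1 RPKM in flower. The plain ratio was 60.4 for root over leaf and 47.1 for flower over leaf. The part of this low actin value in the results below was not tested. A total of 4376 transcripts had at least 1 RPKM in root and under 0.1 RPKM in leaf and flower, 15.6% of those reaching 1 RPKM in root, but only 131 of them reached 10 RPKM in root. Median-ratio scaling of the libraries, an alternative to the values as deposited, moves log2 ratios of RPKM by -0.12 for leaf against flower, 0.23 for root against flower and -0.35 for leaf against root, and upper-quartile scaling by -0.08, 0.25 and -0.33.

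All 3 activators had their highest value in root. ORCA3 stood far above leaf and flower there, MYC2 and ORCA2 by smaller factors, and leaf and flower lay within 2-fold of each other for all 3 on the scale used. The scale was the log2 ratio of (RPKM + 1), and a transcript was counted as differing where the ratio was at least 2-fold and its larger value 1 RPKM or more. By this rule the 3 activators were higher in root than in flower, against 26.7% of the 33360 transcripts compared. In leaf against root, 3 of 3 were lower in leaf, against 30.2% of 34057. In leaf against flower 0 of 3 differed, where 35.3% of 29737 did in either direction. The 3 comparisons share their libraries, so the first 2 results rest on the same root values. In whole organs, fewer cells expressing a gene and less RNA per cell cannot be told apart.

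ORCA3, which activates several TIA genes when overexpressed in cell cultures, had 2.27 RPKM in leaf, 202 RPKM in root and 2.0 RPKM in flower. Root was the only high tissue, and leaf and flower differed by a plain ratio of 1.14. The plain ratio was 88.8 for root over leaf and 101 for root over flower. On the log2 scale this was -5.95 for leaf against root and 6.08 for root against flower, with 0.12 for leaf against flower. Counting ORCA3 itself, 19 of 33360 transcripts were as far above flower in root, which is 0.057%. In leaf against root, 64 of 34057 (0.188%) were as far below root. Both distances together were met by 18 transcripts of the 36900 reaching 1 RPKM in some tissue. These positions describe the libraries and are not a test.

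**Figure D1:**
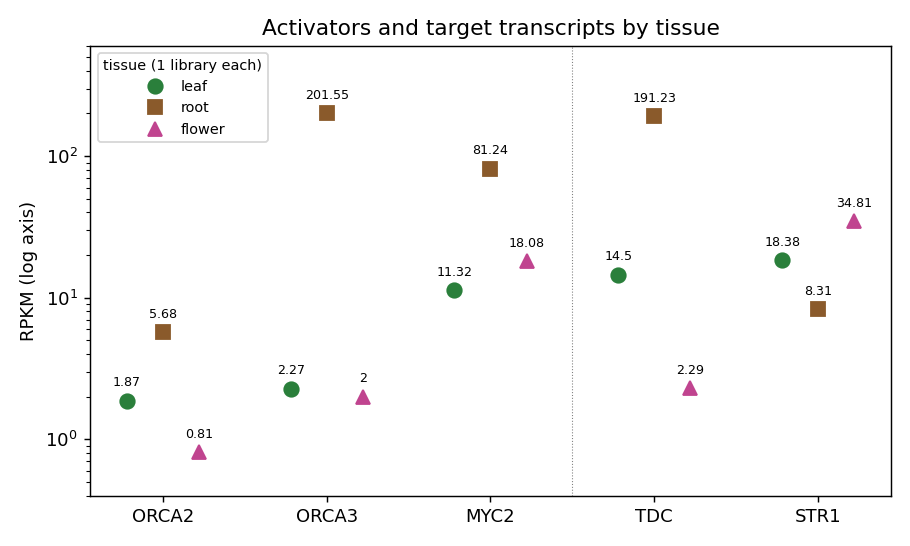
RPKM (log axis) of ORCA2, ORCA3, MYC2 and the target transcripts TDC and STR1, with 1 point per library for leaf, root and flower. ORCA3, MYC2 and TDC stand at 202, 81.2 and 191 RPKM in root, whereas STR1 is lowest in root at 8.31 RPKM.

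The rank of ORCA3 within each library, which does not depend on scaling between libraries, showed the same contrast. Among 59220 transcripts it ranked 18855 in leaf, 296 in root and 19776 in flower. In root it therefore lay in the top 0.50%, but in the top 31.8% in leaf and 33.4% in flower. Root held 97.9% of the summed RPKM of ORCA3 over the tissues, and 97.9% to 98.3% under the 3 scalings tried. A root share as high was found for 210 of the 13867 transcripts reaching 10 RPKM in some tissue (1.51%) but for 4163 of the 36900 reaching 1 RPKM (11.3%), a set that takes in the low transcripts seen in root alone.

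MYC2, the bHLH factor upstream of the ORCA genes, had 11.3 RPKM in leaf, 81.2 RPKM in root and 18.1 RPKM in flower. Unlike the ORCA transcripts it was above 10 RPKM in every tissue, and its order was root, flower, leaf. The plain ratio was 7.18 for root over leaf and 4.49 for root over flower, with log2 ratios of -2.74 for leaf against root and 2.11 for root against flower. Leaf against flower stood at -0.63, within 2-fold. Its ranks were 9119 in leaf, 989 in root and 5976 in flower. As far above flower in root as MYC2 were 2188 of 33360 transcripts (6.56%), and 1737 of 34057 (5.10%) were as far below root in leaf. Among transcripts reaching 10 RPKM these shares were 10.7% and 11.0%, against 0.163% and 0.511% for ORCA3. Root held 73.4% of its summed RPKM.

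ORCA2, first known as a binder of the STR promoter, was the lowest of the activators in every tissue, with 1.87 RPKM in leaf, 5.68 RPKM in root and 0.81 RPKM in flower. It kept under 10 RPKM throughout, and its order was root, leaf, flower. Root exceeded leaf by a plain ratio of 3.04 and flower by 7.01, which on the log2 scale was -1.22 for leaf against root and 1.88 for root against flower. The leaf value was 2.31 times the flower value, but the log2 ratio with 1 RPKM added was 0.67, and it passed 2-fold at 1.11 with 0.1 RPKM added. ORCA2 ranked 20023 in leaf, 12303 in root and 27347 in flower, so that in root it lay only in the top 20.8% of the library. Root held 67.9% of its summed RPKM, a share met by 7768 of the 36900 transcripts reaching 1 RPKM (21.1%).

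**Figure D2:**
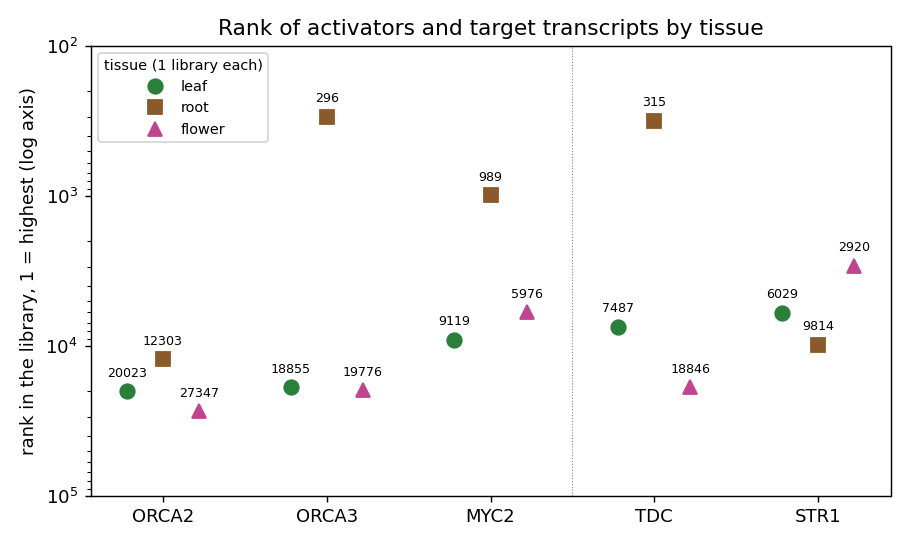
Rank of each activator and target transcript in its library (log axis, 1 = highest of 59220), with 1 point per tissue. ORCA3 and TDC stand side by side in root at ranks 296 and 315, while ORCA2 does not pass rank 12303 in any tissue.

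The number of reads behind the low ORCA values is known only as a lower bound. Transcript lengths were not used here, so reads were not recovered, but the smallest values give a bound. The number of transcripts per step of 0.01 RPKM was 528 at 0.05 and 352 at 0.06 in leaf, 501 and 348 at the same steps in flower, and 528 at 0.06 and 334 at 0.07 in root. Such a drop is where 1 read on the shortest transcripts of a size-selected assembly would lie. If 1 read is thus worth at most 0.065 RPKM, ORCA2 rests on at least 28 reads in leaf, 87 in root and 12 in flower. For ORCA3 the bound is 34 reads in leaf, 3100 in root and 30 in flower. No counting interval is given, since longer transcripts hold more reads per RPKM. The authors kept uniquely mapped reads, so reads that an ORCA transcript shares with a near-identical copy are not in its value. How many such reads there were is not known from the values.

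The order of the activators among themselves also differed between tissues. RPKM is per length, so levels of different transcripts were set side by side, and a ratio within a library is free of scaling. Assembled lengths and reads lost to non-unique mapping were not examined, so their part in such ratios was not tested. ORCA3 stood at 1.21 times ORCA2 in leaf, 35.5 times in root and 2.47 times in flower. Relative to MYC2, ORCA3 was at 0.20 in leaf, 2.48 in root and 0.11 in flower. MYC2 was thus the highest activator transcript in leaf and flower, and ORCA3 the highest in root. MYC2 exceeded ORCA2 in every tissue, by 6.05 times in leaf, 14.3 times in root and 22.3 times in flower.

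Beside the activators, TDC followed the root pattern and STR1 did not. TDC had 14.5 RPKM in leaf, 191 RPKM in root and 2.29 RPKM in flower, the tissue order of ORCA3 and ORCA2. Its log2 ratios were 2.24 for leaf against flower, 5.87 for root against flower and -3.63 for leaf against root. On this scale TDC differed by over 2-fold between leaf and flower, where the activators did not pass the line. STR1 ran the other way, with 18.4 RPKM in leaf, 8.31 RPKM in root and 34.8 RPKM in flower. It was lower in root than in flower (-1.94) and 1.06 above root in leaf, a difference that was within 2-fold after upper-quartile (0.75) or median-ratio (0.73) scaling. STR1 ranked 6029 in leaf, 9814 in root and 2920 in flower, so the tissue in which all activators were highest was the one in which this transcript was lowest. STR2, a further strictosidine synthase transcript, was instead highest in root, with 36.3, 90.8 and 17.5 RPKM in leaf, root and flower. No sequence was compared to tell which of STR1 and STR2 comes from the gene whose promoter the ORCA factors bind.

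ORCA3 and TDC were nearly level in root and in flower. The ratio of ORCA3 to TDC was 0.16 in leaf, 1.05 in root and 0.87 in flower although root exceeded flower by a plain ratio of 101 for ORCA3 and 83.5 for TDC. Leaf stood apart, with TDC at 6.39 times ORCA3. The ratio of ORCA2 to TDC was 0.13 in leaf, 0.030 in root and 0.35 in flower. That of MYC2 to TDC was 0.78 in leaf, 0.42 in root and 7.90 in flower, so that MYC2 exceeded TDC in flower alone. Against STR1 the order of tissues differed. ORCA3 was at 0.12 times STR1 in leaf, 24.3 times in root and 0.057 times in flower. MYC2 was at 0.62 times STR1 in leaf, 9.78 times in root and 0.52 times in flower. ORCA2 was below STR1 in every tissue, at 0.10 in leaf, 0.68 in root and 0.023 in flower.

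**Figure D3:**
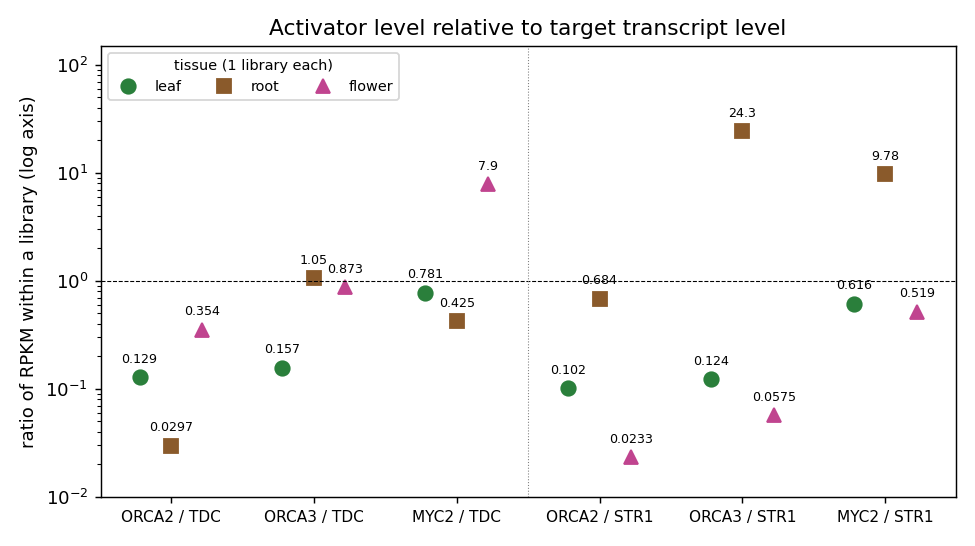
Ratio of each activator to TDC (left) and to STR1 (right) within a library, on a log axis, with the dashed line at equal RPKM. The ORCA3 to TDC ratio is near the line in root (1.05) and flower (0.87), and the ratios to STR1 are highest in root for all 3 activators.

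The wider pathway was taken as 19 enzymes whose identifiers are paired with names in the sources used. Many of them, TDC, SLS, LAMT, CPR, GPPS, D4H, G10H and DAT included, are in the RT-PCR primer list of the paper. The paper took those genes because they differed between root and leaf in its RNA-seq. The counts below are thus partly set by how the enzymes were chosen and do not describe the whole pathway. By the same rule, 11 were higher and 7 lower in root than in flower, where 26.7% and 18.2% of all transcripts were. In leaf against root 10 were higher and 8 lower (22.8% and 30.2% of all), and in leaf against flower 9 were higher and 3 lower (17.2% and 18.1% of all). The median log2 ratio of the 19 was 0.99 for leaf against flower, 1.53 for root against flower and 1.06 for leaf against root, beside 0.11, -0.03 and 0.07 over all transcripts compared. Thus the enzymes were divided over the tissues, with 8 highest in leaf, 8 in root and 3 in flower, whereas the activators were all highest in root, as were 36.6% of the transcripts reaching 1 RPKM.

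Among these are 6 enzymes known to respond to ORCA3 in overexpressing cell cultures: ASA, TDC, STR1, CPR, SLS and D4H. STR1 was counted for strictosidine synthase and STR2, highest in root, was not. Which of them is the gene studied in those cultures was not checked. The highest value was in root for 4 of the 6, as for 36.6% of the transcripts reaching 1 RPKM, in leaf for D4H and in flower for STR1. ASA (anthranilate synthase alpha, at the start of the tryptophan branch) had 31.2 RPKM in leaf, 73.2 RPKM in root and 9.52 RPKM in flower. SLS, which makes secologanin, had 87.9 RPKM in leaf, 577 RPKM in root and 13.3 RPKM in flower. Both had the tissue order of ORCA3, but leaf over flower was 3.28 for ASA and 6.62 for SLS against 1.14 for ORCA3. CPR, the reductase that serves cytochrome P450 enzymes, had 22.7 RPKM in leaf, 214 RPKM in root and 76.4 RPKM in flower, and so shared the order of MYC2. Leaf against flower passed 2-fold for CPR (-1.71) but not for MYC2 (-0.63). D4H, the hydroxylase before the last vindoline step, had 63.2 RPKM in leaf, 2.39 RPKM in root and 3.45 RPKM in flower. Set against root, leaf was lower for 4 of the 6 (30.2% of all transcripts) and higher for 2, STR1 and D4H (22.8% of all). Of the enzymes not raised by ORCA3 in cell cultures, G10H, which hydroxylates geraniol, had 35.8 RPKM in leaf, 8.14 RPKM in root and 2.16 RPKM in flower, and DAT, the last enzyme of vindoline synthesis, had 6.85, 0.37 and 6.29 RPKM in leaf, root and flower. Both were higher in leaf than in root, as were 22.8% of all transcripts, and the lists were not tested against each other.

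**Figure D4:**
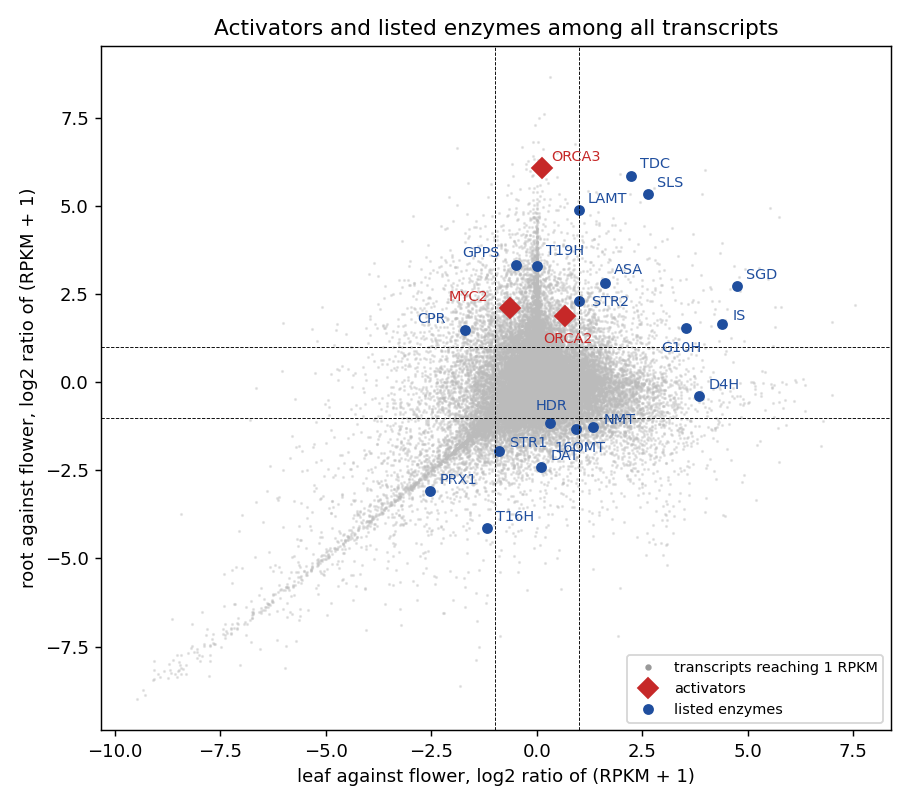
Log2 ratio of (RPKM + 1) for leaf against flower (x axis) and root against flower (y axis), which share the flower library, for the activators (red), the 19 listed enzymes (blue) and the 36900 transcripts reaching 1 RPKM in some tissue (grey). Dashed lines mark 2-fold. ORCA3 lies at 0.12 and 6.08 and TDC at 2.24 and 5.87. They are close on the y axis, but only TDC is past 2-fold on the x axis. MYC2 and ORCA2 lie lower at 2.11 and 1.88 on the y axis.

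Likeness of pattern was measured as the Euclidean distance between the log2 ratios of leaf and of root to flower, over 3 tissues, which leaves only 2 free values per transcript. The enzyme nearest to ORCA3 was LAMT, which methylates loganate on the way to secologanin, at a distance of 1.47, followed by TDC at 2.12 and SLS at 2.62. LAMT had 3.37 RPKM in leaf, 64.1 RPKM in root and 1.20 RPKM in flower. How near this is depends on the measure. As near to ORCA3 as LAMT were 0.252% of the transcripts reaching 1 RPKM, but 2.18% with a pseudocount of 0.1 and 12.8% by the distance of tissue shares. For TDC the same figures were 0.580%, 6.69% and 13.4%. T19H came nearest under both alternatives, with LAMT and TDC after it. The enzyme nearest to ORCA2 was STR2, a further strictosidine synthase transcript, at 0.55, with 36.3 RPKM in leaf, 90.8 RPKM in root and 17.5 RPKM in flower. As near were 1.12% of transcripts, or 0.260% with a pseudocount of 0.1 and 0.618% by shares, and STR2 was the nearest under all 3 measures. At a pseudocount of 1, ASA and T19H followed at 1.33 and 1.57.

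The enzymes nearest to MYC2 were GPPS and CPR under all 3 measures. GPPS, which makes geranyl diphosphate, lay at 1.24, with 13.5 RPKM in leaf, 205 RPKM in root and 19.3 RPKM in flower, followed by CPR at 1.25 and T19H at 1.37. As near as GPPS were 18.4% of transcripts, or 6.88% with a pseudocount of 0.1. By shares CPR came first, with 3.23% of transcripts as near. Among the activators, MYC2 and ORCA2 lay 1.32 apart, whereas ORCA3 lay 4.04 from MYC2 and 4.23 from ORCA2. The order root, leaf, flower of ORCA3 and ORCA2 was found in 3437 of 36900 transcripts (9.31%), and the order root, flower, leaf of MYC2 in 6223 (16.9%).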

How the data were processed

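The authors filtered Illumina reads with NGS QC Toolkit, removed duplicates, mapped them to their assembled transcripts with CLC Genomics Workbench and computed RPKM from uniquely mapped reads. DESeq is also named in the authors' processing notes. The deposited column is headed as a base mean, but its values have 2 decimals and behave as RPKM, so no count test was run. The 3 libraries were grouped by the tissue in the labels. For each pair of tissues the log2 ratio of (RPKM + 1) was computed over all 59220 transcripts, with a line at 2-fold and a larger value of at least 1 RPKM, below which 2-fold cannot be reached. The pseudocount understates the ratios of low transcripts. The coding of the rule was checked on simulated data, in which only transcripts of at least 10 RPKM were changed. That check does not measure the spread between libraries or cover low transcripts such as ORCA2. Named were the activators, TDC and STR1, the enzymes of the ORCA3 response lists, organ check genes, the 3 nearest enzymes to each activator and actin. Identifiers came from text sources, and the RefSeq table matched 0 of them, so no sequence or coordinate is given. Members and lists were chosen with earlier results of these data known. Alternatives were pseudocounts of 0.1 and 10, 3 scalings of the libraries, 4-fold, minimum values of 10 and 50 RPKM, and another distance. Python 3.11.15, numpy 2.4.6, pandas 2.3.3 and matplotlib 3.10.9 were used.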

Additional observations from a re-analysis of the deposited data

How the results depend on the processing

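No direction of ORCA2, ORCA3, MYC2, TDC or STR1 that passed 2-fold was reversed under the pseudocounts, scalings and fold tried, and ORCA3 and MYC2 kept their side of the line in all 3 comparisons. ORCA2 in leaf against flower passed 2-fold with a pseudocount of 0.1 (1.11), which made 1 activator higher there. With a pseudocount of 10, under which a larger value below 10 RPKM cannot reach 2-fold, ORCA2 stood at -0.40 for leaf against root and 0.54 for root against flower, TDC at 0.995 for leaf against flower and STR1 at 0.63 for leaf against root. STR1 in leaf against root was also within 2-fold after upper-quartile (0.75) and median-ratio (0.73) scaling. At 4-fold, ORCA2 (-1.22 for leaf against root and 1.88 for root against flower) and STR1 (1.06 for leaf against root and -1.94 for root against flower) did not pass. The enzymes lower in root than in flower numbered 4 with a pseudocount of 10 and 3 at 4-fold, and 1 was lower in leaf than in flower at 4-fold. The share of all transcripts past the line was 11.2% for leaf against flower, 10% for root against flower and 13.4% for leaf against root with a pseudocount of 10, and 11.8%, 13.3% and 17.8% in that order at 4-fold. Under a minimum of 50 RPKM it was 60.2% for leaf against flower. Of the 3 enzymes nearest to each activator, 2 were the same for each under both other distances, and the share of transcripts as near as LAMT to ORCA3 ran between 0.252% and 12.8%. No paired analysis was possible because each tissue has 1 library.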
